A study of Mus musculus with 8 samples.

Results

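Ly6a, Anpep, Crisp1, Acpp, Psg17 and Mmp12 are 6 mouse genes whose array signal was highest in knockout marrow cells of the group KO_starmut. They were chosen by measured values, since each was picked for a high reading in KO_starmut against the other 3 groups, so that difference is described here and not tested. Each gene has 1 probe set in the authors' deposited list, and the 6 are drawn from the 1049 genes that the list gives as a sole symbol, on arrays of 28853 probe sets. RNA of C57/BL6 bone marrow was hybridised to 8 Affymetrix Mouse Gene 1.0 ST arrays, 2 for each of 4 groups, with replicates numbered 2 and 3. The groups are KO_starmut, KO_223mut and KO_MIG, all of the genotype mir-223-/-, and WT_MIG, which is wild type. All of them, controls included, are total marrow that was prestimulated for 2 days and then carried retroviral Hoxa9 with neomycin resistance and Meis1 with YFP, delivered by co-culture on producer cells that had received 4000 cGy. YFP sorting and 1.4 mg/ml neomycin then selected the transduced cells, so every group is a Hoxa9 and Meis1 driven culture and not unmanipulated marrow. The labels spell out neither MIG nor the mutations. The headers of the deposited list write the name of KO_starmut with an asterisk, the older mark of a passenger strand, so its vector is read here as changed in that strand and the vector of KO_223mut as changed in the guide strand. The design states 2 biological replicates but not whether these were separate mice or cultures. The p-values below measure only how far these arrays spread, which may be technical.

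MicroRNA-223 is made mainly by myeloid cells, and its hairpin is cut into a guide strand, which carries most of the known repression of target messages, and a passenger strand. Hoxa9 and its partner Meis1 are transcription factors that together keep marrow progenitors dividing and drive myeloid leukaemia in mice. The 6 genes are not a known pathway. Ly6a and Anpep encode proteins of the cell surface, Crisp1, Psg17 and Mmp12 secreted proteins, and Acpp a phosphatase with secreted and membrane forms.

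The mature strands of the hairpin are shown because the 2 mutant groups are named for them. Both come from RefSeq, build GRCm38.p6, chromosome X, plus strand, and capitals mark the seed, bases 2 to 8, which pairs with targets. The vectors' own sequences are not used here.
mmu-miR-223-3p (guide, chrX:96242884-96242905): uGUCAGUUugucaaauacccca
mmu-miR-223-5p (passenger, chrX:96242842-96242864): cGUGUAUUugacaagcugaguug
The seeds differ, so each strand forms a seed group of its own. The probe set listed for Mir223 read -0.08 and 0.15 in KO_starmut, 0.01 and 0.04 in KO_223mut, -0.01 and 0.14 in KO_MIG, and -0.98 and -1.07 in WT_MIG. It was therefore lowest in wild-type arrays. No source used here places its probes inside or outside the deletion, and it is no check of the labels.

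All values are log2 signals that the authors had centred, probe set by probe set, on the median of the 8 arrays. A reading of 0 is thus the middle of the arrays, a difference of 1 is a doubling of signal, and levels of different genes cannot be set against each other. Array medians lay between -0.0126 and 0.0109.

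Ly6a encodes Sca-1, a small GPI-anchored protein that marks haematopoietic stem and early progenitor cells of the mouse and is induced by interferons. Its probe set read 1.15 and 1.14 in KO_starmut replicates 2 and 3, 0.04 and -0.16 in KO_223mut, -0.85 and -0.43 in KO_MIG, and -0.04 and 0.19 in WT_MIG. Both KO_starmut arrays lay above all others, both KO_MIG arrays lay below all others, and the arrays of KO_223mut and WT_MIG overlapped between them. The KO_starmut mean was higher than the KO_223mut mean by 1.21, than the KO_MIG mean by 1.79 and than the WT_MIG mean by 1.07 on the log2 scale, or 2.31-fold, 3.45-fold and 2.09-fold. In order of mean level, KO_starmut at 1.15 ± 0.00 was followed by WT_MIG at 0.08 ± 0.16, KO_223mut at -0.06 ± 0.14 and KO_MIG at -0.64 ± 0.30 (SD, 2 arrays each).

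Anpep encodes aminopeptidase N, or CD13, a zinc peptidase of the plasma membrane that removes amino acids from the amino end of peptides and is widely used as a myeloid marker. It read 0.82 and 0.81 in KO_starmut, 0.43 and -0.22 in KO_223mut, -0.53 and 0.00 in KO_MIG, and -0.15 and -0.00 in WT_MIG. The KO_starmut arrays were the highest, while the arrays of neighbouring groups below them overlapped. Its replicates were far apart in KO_223mut, with a gap of 0.65 on the log2 scale, and in KO_MIG, with a gap of 0.53, against 0.01 in KO_starmut. The KO_starmut mean stood 0.71 above KO_223mut, 1.08 above KO_MIG and 0.89 above WT_MIG.

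**Figure D1:**
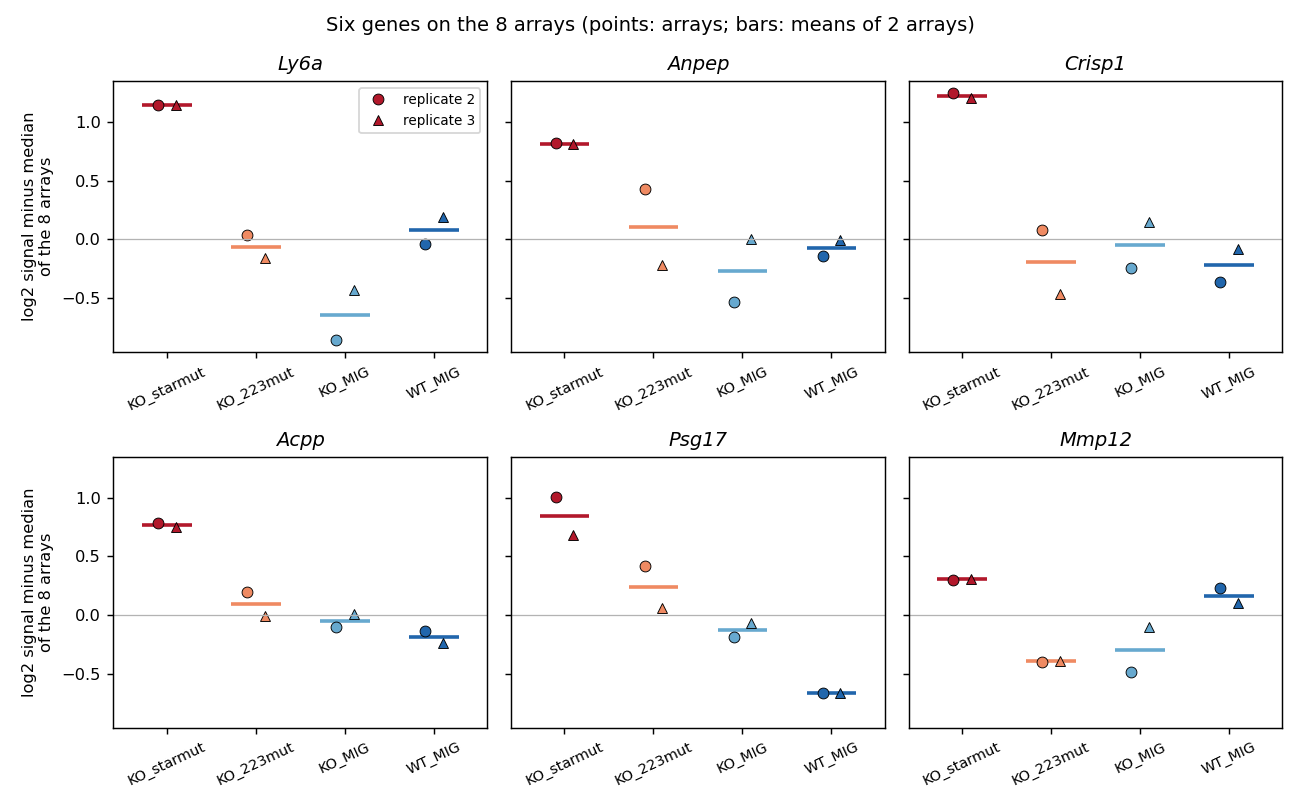
Log2 signal of each gene, minus its median over the 8 arrays, by group. Circles are replicate 2, triangles replicate 3, and bars are means of 2 arrays. The KO_starmut arrays are the highest in each panel, by a wide margin for Crisp1 (1.06 above the next array) and a narrow one for Mmp12 (0.07).

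Crisp1 encodes cysteine-rich secretory protein 1, a product of the epididymis that coats sperm. It read 1.24 and 1.21 in KO_starmut, 0.08 and -0.47 in KO_223mut, -0.24 and 0.15 in KO_MIG, and -0.36 and -0.08 in WT_MIG. The other 3 groups overlapped with their neighbours in the order of means, and the lowest KO_starmut array stood 1.06 above the highest other array, the widest such margin of the 6 genes. Its KO_starmut mean was higher by 1.42 than KO_223mut, by 1.27 than KO_MIG and by 1.45 than WT_MIG, so that the 3 differences were close to each other.

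Psg17 encodes a pregnancy-specific glycoprotein, a secreted relative of the CEACAM cell adhesion proteins that is known from the placenta. Its arrays read 1.005 and 0.68 in KO_starmut, 0.42 and 0.06 in KO_223mut, -0.19 and -0.06 in KO_MIG, and -0.66 and -0.67 in WT_MIG. None of the 4 groups overlapped with its neighbour, and the order was KO_starmut, KO_223mut, KO_MIG and WT_MIG. The KO_starmut mean was higher by 0.60 than KO_223mut, by 0.97 than KO_MIG and by 1.51 than WT_MIG, 1.52-fold, 1.96-fold and 2.84-fold.

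Acpp encodes prostatic acid phosphatase, which in mouse sensory neurons also turns AMP into adenosine. It read 0.78 and 0.75 in KO_starmut, 0.20 and -0.01 in KO_223mut, -0.10 and 0.01 in KO_MIG, and -0.14 and -0.23 in WT_MIG. The means followed the same order as for Psg17, but KO_223mut and KO_MIG overlapped. Against the other groups the KO_starmut mean was higher by 0.67 (KO_223mut), 0.82 (KO_MIG) and 0.95 (WT_MIG).

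Mmp12 encodes macrophage elastase, a secreted protease that degrades elastin. It read 0.30 and 0.31 in KO_starmut, -0.40 and -0.39 in KO_223mut, -0.48 and -0.10 in KO_MIG, and 0.23 and 0.10 in WT_MIG. Wild-type arrays thus lay just under KO_starmut, and both other knockout groups lay below wild type without overlap. The KO_starmut mean was higher by 0.70 than KO_223mut and by 0.60 than KO_MIG, but by 0.14 than WT_MIG, or 1.10-fold.

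In all 6 genes both KO_starmut arrays lay above the 6 other arrays, as they did in 670 of 28844 probe sets (2.32%). The genes were chosen for this, so nothing is read from that count. Against the mean of the other 3 groups the KO_starmut mean was higher by 1.38 for Crisp1, 1.35 for Ly6a, 1.03 for Psg17, 0.89 for Anpep, 0.81 for Acpp and 0.48 for Mmp12, with a median of 0.96 beside -0.01 over all probe sets. Between arrays of the same replicate number the 36 differences ran from 0.07 (Mmp12, replicate 2, against WT_MIG) to 2.00 (Ly6a, replicate 2, against KO_MIG). All were above 0, which had to follow once both KO_starmut arrays lay above the others, so it adds no support. Where the groups differed in which was lowest, the genes split: KO_MIG was lowest for Ly6a and Anpep, WT_MIG for Crisp1, Acpp and Psg17, and KO_223mut for Mmp12. In Anpep, Crisp1 and Mmp12 the lowest group overlapped with the next.

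**Figure D2:**
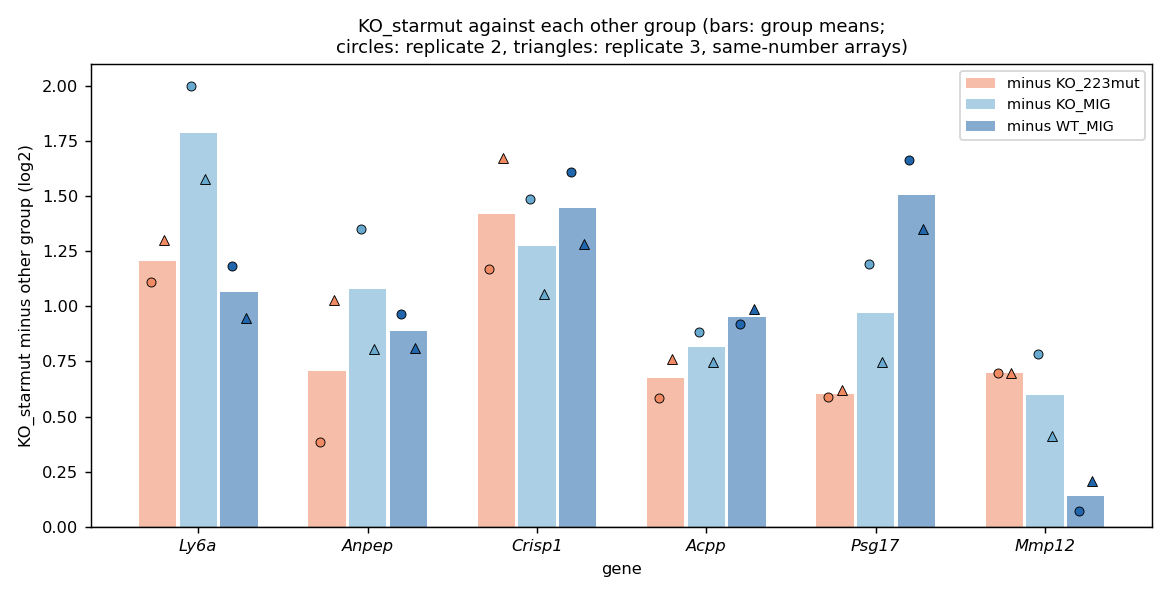
KO_starmut minus each other group (log2) for the 6 genes. Bars are differences of means of 2 arrays, circles and triangles differences between arrays numbered 2 and 3. The bars are of similar height for Crisp1, rise toward WT_MIG for Psg17 (0.60, 0.97 and 1.51), and nearly vanish against WT_MIG for Mmp12 (0.14).

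How a gene came to be named bears on these readings. Symbols come only from the authors' deposited list of 1264 probe sets, which kept those whose uncorrected p-value across the same 4 groups was under 0.05 in the authors' one-way test for groups of unequal variance. In the authors' deposited table that p-value was 0.0474 for Anpep, 0.0467 for Crisp1, 0.0445 for Psg17, 0.0295 for Ly6a, 0.0127 for Acpp and 0.000386 for Mmp12. The first 3 were close inside the limit. With 2 arrays a group, that test favours groups whose replicates nearly coincide, and the KO_starmut replicates of the 6 genes differed by 0.01 (Ly6a, Anpep and Mmp12), 0.03 (Acpp), 0.04 (Crisp1) and 0.32 (Psg17). Among the 112 probe sets with a KO_starmut difference of at least 0.4, the median gap between its replicates was 0.06 for the 16 in the list and 0.54 for the 96 outside it, a contrast that the list's own test favours. The close agreement of the KO_starmut arrays is therefore no measure of precision.

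Ranked by the KO_starmut difference among all complete probe sets, Crisp1 was number 5, Ly6a 6, Psg17 12, Anpep 20, Acpp 27 and Mmp12 75. Of the 30 probe sets at the top, 9 were in the list and 8 of these had a sole symbol. Outside the list, probe set 10439292 had the largest difference, 1.68, with 1.83 and 1.05 in KO_starmut against -1.04 to 0.22 elsewhere. Probe set 10450926, at 1.06, read 0.82 and 1.09 in KO_starmut against -0.65 to 0.22 elsewhere. Neither has a gene name here, and both were singled out after their values were seen. The 6 genes are thus some of the probe sets that were high in KO_starmut, and other named genes stood above Mmp12 (0.48), among them Cd200r3 (0.70), Rnf128 (0.66), Usp17l5 (0.58) and, by less, Bmp2 (0.48). Tmem47, Cd55 and 1700112E06Rik also stood among the 30, with a KO_starmut mean that stood only -0.24, 0.22 and 0.06 from the highest other group mean and with lowest arrays of -3.05, -1.47 and -2.05 in the other groups.

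**Figure D3:**
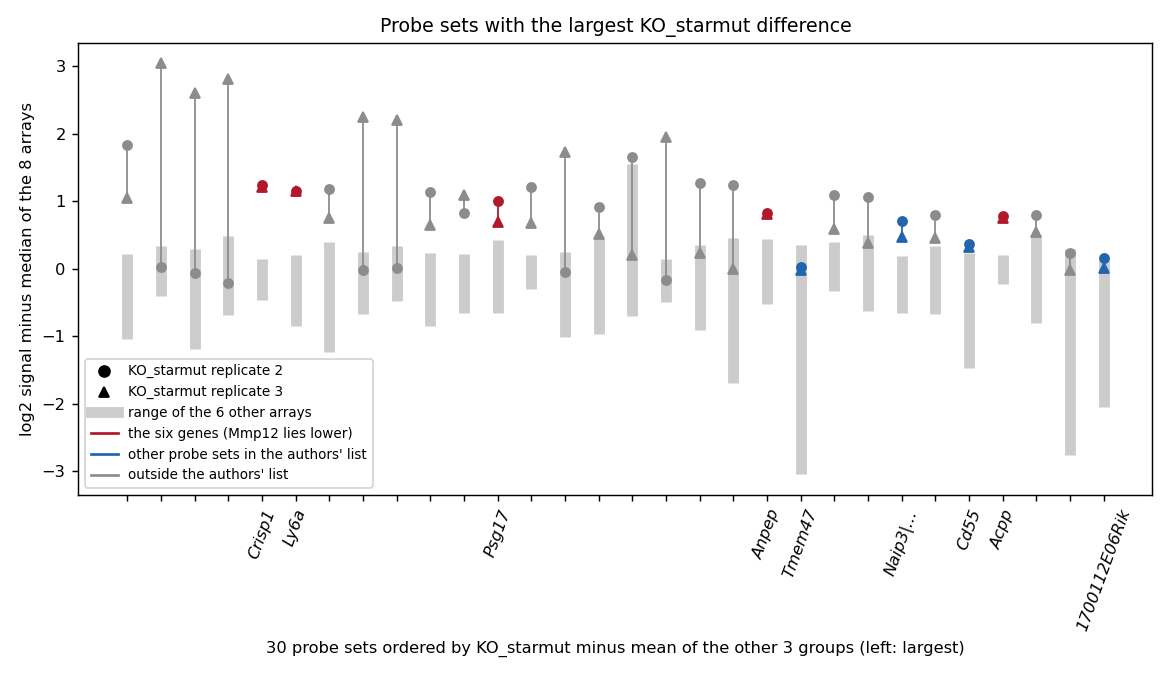
The 30 probe sets with the largest KO_starmut difference, largest at the left. Circles and triangles are KO_starmut replicates 2 and 3, grey bars the range of the 6 other arrays, all as log2 signal minus the median of the 8 arrays. Of the 6 genes, in red, 5 are among the 30, with replicates that nearly coincide except in Psg17 (1.005 and 0.68), while several probe sets outside the list are high on replicate 3 alone, up to 3.04.

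The comparisons among KO_223mut, KO_MIG and WT_MIG leave out the contrast that chose the genes. They were tested with limma over all 28853 probe sets. The spread of each gene was taken from all 4 groups. The KO_starmut replicate gaps, which are no measure of precision, therefore enter the SEs and 95% intervals below. The list's own limit used the compared arrays too, so the tests are not free of selection. The 3 comparisons also share groups in pairs. KO_MIG against WT_MIG asks what the knockout changes. There 0 of the 6 genes passed an adjusted p of 0.05 (limma, Benjamini-Hochberg), where 0.135% of all probe sets and 2.45% of those in the list did. At an unadjusted p under 0.05 in limma 3 of the 6 stood out, against 5.58% of all and 26.7% of the list. Ly6a differed by -0.72 ± 0.14 (log2 difference and SE, n = 2 arrays each, adjusted p = 0.171 in limma), with KO_MIG at -0.64 and WT_MIG at 0.08. Mmp12 differed by -0.46 ± 0.12 (limma adjusted p = 0.388), or -0.27 without KO_MIG replicate 2. Psg17 differed the other way, by 0.54 ± 0.14 (limma adjusted p = 0.389). With only the arrays of the groups compared in the fit, the limma adjusted p was 0.385 for Ly6a, 0.713 for Mmp12 and 0.198 for Psg17. In these 3 genes, and in Acpp, the arrays of the groups did not overlap. The share of all probe sets separated in this way was not counted, so nothing is read from it. The 95% intervals of Anpep (-0.72 to 0.33), Crisp1 (-0.28 to 0.63) and Acpp (-0.07 to 0.34) spanned 0.

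KO_223mut against KO_MIG sets the guide-strand mutant vector against the MIG control within knockout cells. None of the 6 genes, and 0% of all probe sets, passed in limma. There were 1171 probe sets with an unadjusted p under 0.05 in limma, 4.06% of all, and they included Ly6a and Psg17. In the authors' list the share was 19.5%. With only probe sets of the authors' list tested, Ly6a passed (limma adjusted p = 0.0425), as did 9.26% of that list. Ly6a was at -0.06 in KO_223mut and -0.64 in KO_MIG, a difference of 0.58 ± 0.14 (SE, limma adjusted p = 1, 95% interval 0.25 to 0.92), which was 0.37 without KO_MIG replicate 2 and 0.92 with quantile normalization. Both mutant vectors thus had a higher Ly6a mean than KO_MIG, by 0.58 for KO_223mut and 1.79 for KO_starmut, with KO_MIG arrays shared by both differences. Psg17 differed by 0.37 ± 0.14 (95% interval 0.04 to 0.69), or 0.19 without KO_223mut replicate 2. The intervals for Anpep (-0.15 to 0.90), Crisp1 (-0.60 to 0.31), Acpp (-0.06 to 0.35) and Mmp12 (-0.38 to 0.18) spanned 0.

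KO_223mut against WT_MIG joins genotype and vector in 1 difference. Psg17 was the 1 gene of the 6 that passed, with 0.721% of all probe sets and 7.59% of those in the list. It rose in KO_223mut by 0.90 ± 0.14 on the log2 scale, 1.87-fold (SE, n = 2 arrays each, adjusted p = 0.0393 in limma), and both KO_223mut arrays lay above both WT_MIG arrays. The call was fragile. The limma adjusted p was 0.0632 with quantile normalization and 0.0866 with only the groups compared. It was 0.0366 with array centring, 0.0413 with robust eBayes, 0.0484 with array weights and 0.0125 with the replicate number as a block. Without 1 array the difference ranged from 0.73 to 1.08, and the call was lost in most of those fits. Mmp12 differed by -0.56 ± 0.12 (limma adjusted p = 0.122, or 0.0353 without either KO_MIG array), with -0.40 and -0.39 in KO_223mut against 0.23 and 0.10 in WT_MIG. Acpp differed by 0.28 ± 0.09 (limma adjusted p = 0.308), or 0.18 without KO_223mut replicate 2. For Ly6a the difference was -0.14 (95% interval -0.48 to 0.20), for Anpep 0.18 (-0.34 to 0.71) and for Crisp1 0.03 (-0.43 to 0.48).

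**Figure D4:**
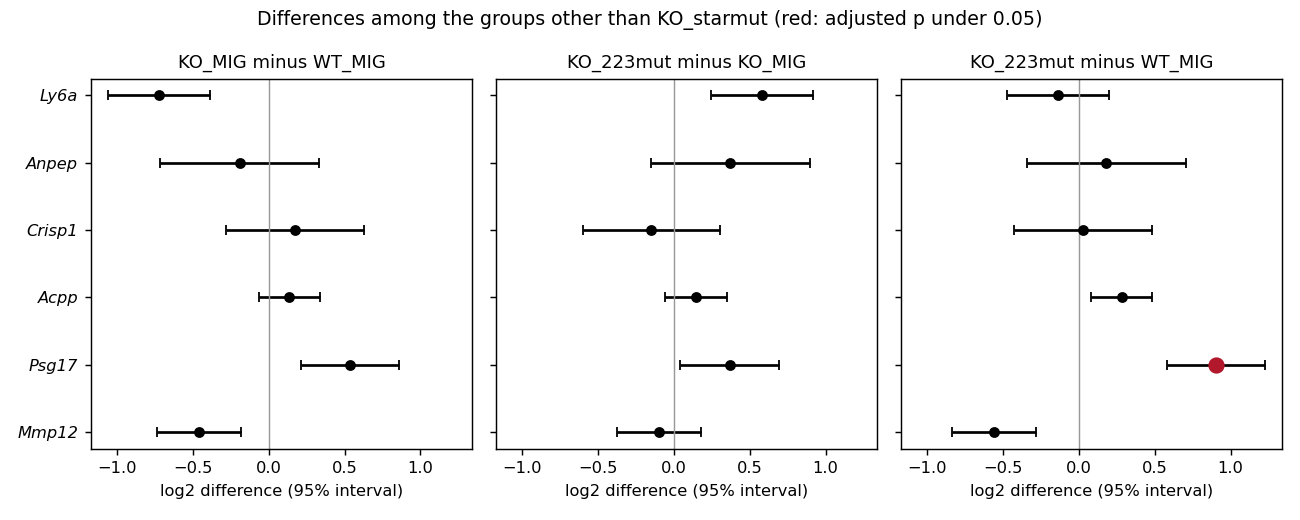
Log2 differences of the 6 genes in the 3 comparisons without KO_starmut. Points are differences of means of 2 arrays, lines 95% intervals from limma, and red marks an adjusted p under 0.05 over all probe sets. Psg17 in KO_223mut minus WT_MIG (0.90) is the marked point, while the intervals of Anpep and Crisp1 span 0 in all panels.

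The genes were also compared with Ly6a array by array. Over the 8 arrays the Pearson correlation to Ly6a was 0.92 for Anpep, 0.85 for Crisp1, 0.84 for Acpp, 0.77 for Mmp12 and 0.66 for Psg17, values that the shared high KO_starmut arrays set. Over the 6 arrays without KO_starmut it was 0.68 for Anpep and 0.53 for Mmp12, but 0.05 for Crisp1, -0.02 for Acpp and -0.17 for Psg17. Outside KO_starmut the correlation to Ly6a was thus highest for Anpep and Mmp12, as a description of 6 points that include replicates. How many probe sets reach such values was not counted. For Anpep the likeness ran partly between replicates: KO_MIG replicate 2 was below replicate 3 in both genes, by 0.42 for Ly6a and 0.53 for Anpep.

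Among other genes with a sole symbol and a KO_starmut difference of at least 0.3 in size, the 8 most like Ly6a over the 8 arrays were taken. They were Usp17l5 (r = 0.79), a ubiquitin peptidase of the Usp17 family, Bmp2 (0.79), a bone morphogenetic ligand, Kpnb1 (0.73), a nuclear import receptor, Hmox1 (0.73), the inducible haem oxygenase, and Cd200r3 (0.72), a receptor of mast cells and basophils. Fam162a (0.72), Pgr (0.63), the progesterone receptor, and Rnf128 (0.55), a ubiquitin ligase, complete them. Without KO_starmut the correlation was 0.48 for Hmox1 and between -0.39 and 0.05 for the other 7, so that those 7 resembled Ly6a through the KO_starmut arrays. Hmox1 read 0.46 and 0.15 in KO_starmut, -0.27 and -0.22 in KO_223mut, -0.15 and -0.32 in KO_MIG, and 0.17 and 0.24 in WT_MIG. As for Mmp12, its wild-type arrays stood above both other knockout groups, but here they overlapped with KO_starmut.

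The mirror pattern was closer than any of these. Lpar6, a receptor of lysophosphatidic acid, and Apobec3, a cytidine deaminase that restricts retroviruses, both correlated with Ly6a at -0.97 over 8 arrays, and at -0.89 and -0.88 over the 6 without KO_starmut. They were taken, after values were seen, as the lowest correlations over the 8 arrays among 63 probe sets of that size of difference. The 8 arrays include the 6, so the values over 6 are favoured by this choice. Apobec3 read -0.31 and -0.30 in KO_starmut, -0.00 and 0.00 in KO_223mut, 0.21 and 0.21 in KO_MIG, and 0.09 and -0.07 in WT_MIG. Its order of groups was that of Ly6a turned round at both ends, with KO_starmut lowest and KO_MIG highest.

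**Figure D5:**
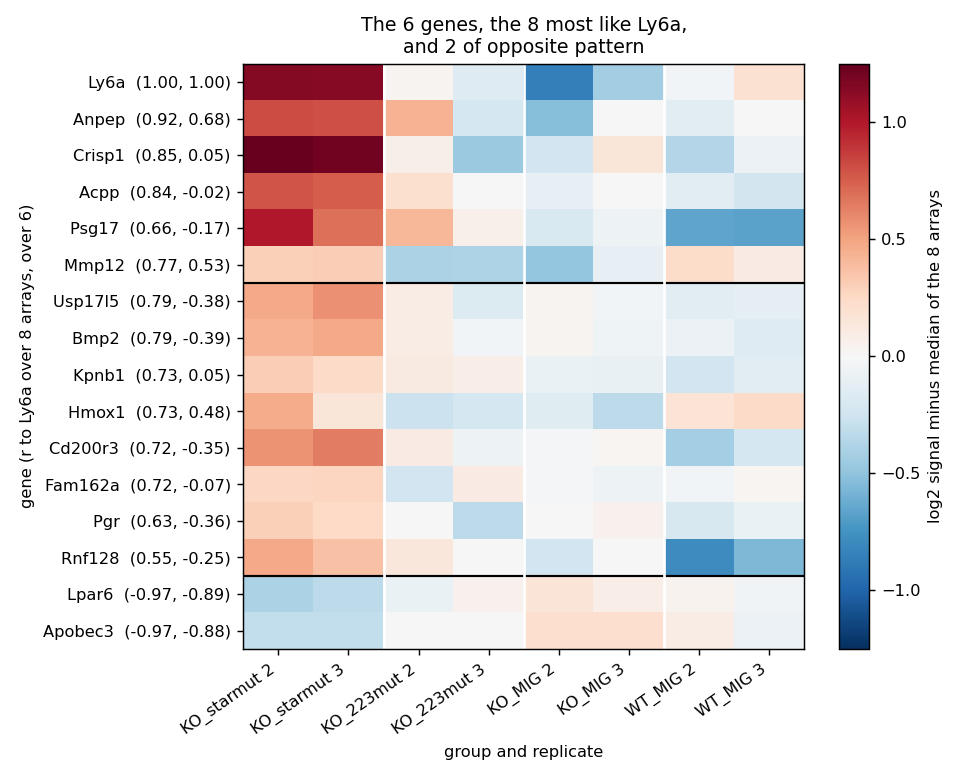
Heat map of log2 signal minus the median of the 8 arrays for the 6 genes, the 8 genes most like Ly6a and 2 of opposite pattern, with r to Ly6a over 8 and over 6 arrays in brackets. Red is above and blue below the median. The 2 left columns, KO_starmut, are red for the upper 14 genes. Lpar6 and Apobec3, chosen for the lowest r over 8 arrays, have r of -0.89 and -0.88 over 6.

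Relatives of the 6 genes and markers of cell types could be followed where the authors' list names them, 27 of 270 genes in 17 lists. None of the 27 passed in KO_MIG against WT_MIG or in KO_223mut against KO_MIG, and 6 passed in KO_223mut against WT_MIG, 2 higher and 4 lower (limma over all probe sets), where 0.721% of all probe sets and 7.59% of those in the authors' list did. The 27 include the 6 genes themselves, and Psg17, given above, is among those that passed. The list was selected on these arrays, so the counts are not independent evidence. Within the families of the 6 genes, Ly6a, Anpep, Crisp1 and Acpp were the sole members named, out of 25, 16, 14 and 9. Of 25 PSG and CEACAM genes 3 were named. Ceacam2, an adhesion protein, read 0.12 and 0.01 in KO_starmut, -0.01 and 0.03 in KO_223mut, 0.04 and -0.09 in KO_MIG, and -0.27 and -0.26 in WT_MIG, lowest in wild type as was Psg17 but without its separation of the knockout groups. Ceacam18 varied by 0.11 between group means. Of 25 matrix metalloproteinases and inhibitors 3 were named. Timp2, an inhibitor of metalloproteinases, fell in KO_223mut against WT_MIG by 0.57 ± 0.07 on the log2 scale (SE, limma adjusted p = 0.0118), as Mmp12 was lower there without passing. Mmp2, a gelatinase, averaged -0.08 in KO_starmut, 0.23 in KO_223mut, -0.03 in KO_MIG and 0.09 in WT_MIG, and so did not share the KO_starmut reading of Mmp12.

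Marker genes moved with some of the groups. Signals are of whole cultures, in which fewer cells of a type and less RNA per cell cannot be told apart. Of 11 mast cell and basophil genes 1 was named, Cd200r3, which read 0.57 and 0.64 in KO_starmut, 0.10 and -0.06 in KO_223mut, -0.02 and 0.02 in KO_MIG, and -0.43 and -0.22 in WT_MIG, the order seen in Psg17 and Acpp. Its part in the results was not tested. Of 19 stem and progenitor genes 4 were named, Ly6a included. Flt3, a receptor of early progenitors that is also in the dendritic list, averaged -0.29 in KO_starmut, -0.16 in KO_223mut, 0.08 in KO_MIG and 0.30 in WT_MIG, and Lmo2, a regulator of blood stem cells, -0.01, 0.09, 0.21 and -0.20 in the same order of groups. Neither was high in KO_starmut, where Ly6a was.

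Of 17 granulocyte genes 1 was named, the integrin Itgam, which fell in KO_223mut against WT_MIG by 1.15 ± 0.10 on the log2 scale (SE, limma adjusted p = 0.00659). Its KO_starmut mean was -0.09 and its KO_MIG mean 0.00, so the myeloid surface gene Itgam was not high where Anpep was. Of 17 monocyte and macrophage genes 2 were named. Cd68, a glycoprotein of macrophage lysosomes, fell in KO_223mut against WT_MIG by 0.48 ± 0.07 (limma adjusted p = 0.0252) and averaged 0.02 in KO_starmut, -0.19 in KO_223mut, -0.03 in KO_MIG and 0.29 in WT_MIG. The wild-type arrays were highest for Cd68, whereas KO_starmut was highest for the macrophage protease Mmp12. Stat2 was the 1 gene named of 27 interferon response genes and averaged -0.08 in KO_starmut, -0.15 in KO_223mut, 0.08 in KO_MIG and 0.13 in WT_MIG.

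Of 14 fibroblast genes 2 were named, Mmp2 and Dcn, a matrix proteoglycan, which averaged -0.01 in KO_starmut, 0.11 in KO_223mut, 0.00 in KO_MIG and -0.08 in WT_MIG. The dendritic gene Cd74, the invariant chain of antigen presentation, averaged 0.19 in KO_starmut, 0.06 in KO_223mut, -0.19 in KO_MIG and -0.04 in WT_MIG. Of 10 B-lineage genes 2 were named, and Igll1 averaged -0.10 in KO_starmut, 0.06 in KO_223mut, 0.26 in KO_MIG and -0.08 in WT_MIG. Cd96, the 1 gene named of 11 for T and NK cells, rose in KO_223mut against WT_MIG by 0.61 ± 0.09 (SE, limma adjusted p = 0.0395), and no erythroid or megakaryocyte gene was named. Of 23 reported targets of miR-223, 6 were named. Nlrp3, an inflammasome sensor, fell in KO_223mut against WT_MIG by 0.80 ± 0.09 (SE, limma adjusted p = 0.00955). The other 5 did not pass and differed the other way, by 0.29 for Lmo2, 0.27 for Igf1r, 0.15 for Rasa1, 0.14 for Rps6kb1 and 0.12 for Sp3, the last 3 named after their values were seen. Igf1r, a growth factor receptor, averaged 0.00 in KO_starmut, -0.03 in KO_223mut, 0.16 in KO_MIG and -0.30 in WT_MIG.

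The sequence before the start sites was set beside these values because the genes share a reading in KO_starmut. RefSeq windows of 300 bases, 250 before and 50 after a start, were at hand for 5 of the 6 genes (6 windows, build GRCm38.p6). Both strands of each were searched for 5 motifs. The TATA box, TATAAA, occurs in 13.6% of the 32851 windows of the table. The AP-1 motif, TGANTCA, occurs in 7.81% of them and the MEIS motif of the Meis1 family, TGACAG, in 19.2%. The joint HOX and PBX motif, TGATTNAT, occurs in 3.22%, and the interferon element GAS, TTCNNNGAA, in 8.30%. No motif was shared by the 5 genes. Crisp1 held a TATA box at -31 to -26, Acpp a MEIS match at -31 to -26, and Psg17 MEIS matches at -154 to -149 and at -125 to -120. Of 2 starts of Mmp12 the downstream one had AP-1 at -44 to -38 and a TATA box at 5 to 10, and the other had none of the 5. Anpep had none, and its window was 72.3% G and C, against a median of 52.7%. A match is a string of letters and shows no bound factor. The last 150 bases of 4 windows are printed to show the contrast between the GC-rich start of Anpep and the others, 100 before and 50 after the start, with motif matches in capitals.
Anpep (chr7:79848161-79848310, minus strand): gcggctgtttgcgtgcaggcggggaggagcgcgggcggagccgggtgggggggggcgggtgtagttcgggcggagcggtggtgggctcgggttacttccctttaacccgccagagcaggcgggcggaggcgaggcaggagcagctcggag
Crisp1 (chr17:40319158-40319307, minus strand): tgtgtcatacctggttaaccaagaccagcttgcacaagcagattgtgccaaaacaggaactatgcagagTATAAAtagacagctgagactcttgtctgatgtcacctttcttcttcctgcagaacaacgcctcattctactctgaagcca
Acpp (chr9:104337673-104337822, minus strand): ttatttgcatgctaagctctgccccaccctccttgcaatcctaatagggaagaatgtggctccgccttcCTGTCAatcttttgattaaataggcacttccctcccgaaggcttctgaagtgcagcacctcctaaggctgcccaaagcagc
Mmp12, downstream start (chr9:7347274-7347423, plus strand): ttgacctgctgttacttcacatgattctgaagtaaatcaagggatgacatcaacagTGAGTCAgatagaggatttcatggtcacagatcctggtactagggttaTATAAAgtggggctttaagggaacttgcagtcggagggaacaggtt
By gene order in the same RefSeq assembly, Ly6a lies among Ly6e, Ly6i, Ly6c1 and Ly6c2 on chromosome 15, Crisp1 beside Crisp3 on 17, Psg17 beside Psg22 and Psg19 on 7, and Mmp12 among Mmp13, Mmp1b and Mmp3 on 9. None of the 4 nearest protein-coding genes of any of the 6 has a sole symbol in the authors' list, so whether neighbours read alike was not tested. Whether probes of these sets also match such close relatives was not tested, so their signals are uncertain to that degree.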

How the data were processed

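RNA of 8 cultures was measured on Affymetrix Mouse Gene 1.0 ST arrays. Per the file headers, signals were summarised by RMA16 with annotation na31 on build mm9. The authors deposited log2 values centred per probe set on the median of all arrays (checked: medians of 0 within 7e-07), so no level above background is left. The deposited p-values come from a one-way Welch analysis of variance without correction on probe sets at the 20th to 100th percentile of raw signal, per the file headers. Group means recomputed from the value table matched the deposited ones within 2.6e-07. The sources used here name no further step between arrays.

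The fit of log2 values used limma 3.58.1 (R 4.3.3) and took in all 8 arrays, with 4 group terms, no block and eBayes (4 residual and 3.67 prior degrees of freedom), on all 28853 probe sets. Tests are two-sided, adjusted by Benjamini-Hochberg over all probe sets, at a threshold of 0.05. The code was tested on simulated data. In KO_starmut replicate 3, 9 cells are blank, none in a named gene. Comparisons with KO_starmut were not tested, since they chose the genes. Named genes are the 6, the 8 most like Ly6a by Pearson correlation, and from each gene list those called or else up to 3 with the widest range of group means. The genes and lists were chosen with earlier results of these data known. The values of 1 gene that the rule takes are not reported here. Alternatives covered the replicate block, array centring, quantile normalization, robust eBayes, array weights, the authors' list alone, only the groups compared, and leaving out each array. Precision is limited by 2 arrays a group.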

Additional observations from a re-analysis of the deposited data

How the results depend on the processing

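For the comparisons without KO_starmut, 18 differences were refitted in 15 ways. The count of the 6 genes that passed moved to 3 in KO_MIG against WT_MIG, 1 in KO_223mut against KO_MIG and 3 in KO_223mut against WT_MIG when only probe sets of the authors' list were tested, where fewer tests are adjusted for, all were selected on these arrays, and 24.4%, 9.26% and 42.5% of the list passed. In KO_223mut against WT_MIG it became 0 under quantile normalization and 0 in a fit restricted to the groups compared. Without 1 array Psg17 mostly did not pass, and without a KO_MIG array Mmp12 passed in its place. In those fits a lone array is assumed to vary like the other groups. No label says that a replicate number links arrays, though deviations of same-numbered arrays correlated at 0.36 to 0.53 between groups. With the replicate number as a block, Psg17 stayed the 1 called gene (0.90, limma adjusted p = 0.0125). Calls over all probe sets then became 277 in place of 39 (KO_MIG against WT_MIG) and 732 in place of 208 (KO_223mut against WT_MIG). Without the block, leaving out 1 array gave fewer calls than 39 and 208. Also without it, calls were 10 and 120 with quantile normalization, and 5 and 112 with only the groups compared. Signs turned in 6 of the 18 differences, none of them called. Mmp12 in KO_223mut against KO_MIG was 0.024 with quantile normalization and -0.29 to 0.0917 without 1 array. Without 1 array Anpep ranged from -0.46 to 0.0746 (KO_MIG against WT_MIG) and -0.14 to 0.51 (KO_223mut against WT_MIG), and Crisp1 from -0.0216 to 0.37, -0.25 to 0.30 and, in KO_223mut against KO_MIG, -0.42 to 0.12. Without 1 array Ly6a ranged from 0.37 to 0.79 and Psg17 from 0.19 to 0.54 in KO_223mut against KO_MIG, and Mmp12 from -0.65 to -0.27 in KO_MIG against WT_MIG. The cause was not tested. The median KO_starmut difference of 0.96 was 0.88 to 1.04 without 1 array and 0.69 against the highest other group mean. The genes were chosen for this difference, from a list that favours close replicates, so its steadiness is no support for it.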

Other observations

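In KO_starmut replicate 3, 9 probe sets were high that read 1.32 to 3.04 there and -0.21 to 0.03 in KO_starmut replicate 2, by limits set after the values were seen (above 1.2 and below 0.1). On 1 of them, 10383853, another array reached 1.56, as high as replicate 3 at 1.48. None of the 9 is in the authors' list, so their genes are not named here, and 3 of the 4 largest KO_starmut differences on the arrays rest on that 1 array. None of the 6 genes is among the 9: on each of the 6, KO_starmut replicate 2 alone also lay above the other 6 arrays. The 6 were chosen for high KO_starmut readings from a list that favours close replicates, so nothing is read from this.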
